A study of Drosophila melanogaster with 4 samples.

Results

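The ecdysteroid kinase-like (EcKL) genes are a family of predicted small-molecule kinases, also catalogued as the DUF227 family. They were taken from a list of 47 gene symbols, and all 47 were among the 15340 genes of the deposited table. A total of 44 members had at least 1 read in some library, and 32 reached a mean normalized count of 10 and were tested.

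EcKL proteins share the fold of choline kinases and of the aminoglycoside phosphotransferases with which bacteria disarm antibiotics. The founding member, from the silkworm Bombyx mori, adds a phosphate to the hydroxyl group at carbon 22 of ecdysteroids, the steroid hormones that time moulting, and so turns them into an inactive storage form. The family is enlarged in Drosophila, where many members are expressed in the gut and where phosphorylation of plant toxins and other foreign compounds has been proposed as a further role. The substrate of most of the fly proteins is not known, and no role is given below for a member known only by its CG number.

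RNA was sequenced from whole Drosophila melanogaster larvae, described by the authors as second instar. There were 2 independent RNA extractions for each of 2 genotypes. The larvae labelled mutant were Xbp1 ex79-/-, which carry a deletion made by imprecise excision of a transposon. It removes the start codon and the part of Xbp1 that encodes the DNA-binding domain, in a gene for a transcription factor of the unfolded protein response that IRE1 activates by splicing its mRNA. The larvae labelled WT were Xbp1+/+, from a precise excision of the same insertion, Xbp1 CB02061, so both genotypes descend from 1 parent line. No transgene or treatment of the sequenced larvae is given in the sources used here. The sex of the larvae was not given in the sources used here, and p-values measure the spread between extractions.

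The 4 libraries held between 31416284 and 38601267 reads on genes, of which CR41602, a ribosomal RNA pseudogene, took between 37.2% and 43.7%. Values below are normalized counts, which are reads divided by the size factor of the library. For a single library, 3 reads correspond to 2.69 to 3.62 normalized counts. Normalized counts of Xbp1 itself were 6087 and 5953 in libraries labelled mutant, against 5521 and 7378 in libraries labelled WT (log2 fold change -0.08, SE 0.21, limma adjusted p = 0.852, with all adjusted p-values here by Benjamini-Hochberg over all genes tested). The 2 groups overlapped, so the labels could not be checked on the targeted gene. Every direction below is between libraries as labelled, called mutant 1, mutant 2, WT 1 and WT 2.

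Some libraries stood apart in tissue markers. The summed normalized count of 18 spermatocyte and testis genes was 1555 and 3900 in the mutant libraries, against 10550 and 3789 in the WT libraries, so WT 1 was the highest and mutant 1 the lowest. Among these genes, 9 of 16 tested were lower in both mutant libraries, with a median log2 fold change of -1.37 (background for lower, 27.9% of all genes tested). DESeq2 called 2 of them lower, aly and sa (adjusted p = 0.0192 and 0.0319, background 1.3%), and limma called 0. Normalized counts of aly were 3.58 and 21.5 in the mutant libraries, against 185 and 68.7 in the WT libraries. Those of sa were 17.9 and 26.7 in the mutant libraries, against 182 and 67.5 in the WT libraries. The 10 fat body genes summed to 8359400 and 11338000 in the mutant libraries, against 7312300 and 10973000 in the WT libraries, and 0 of them separated the groups. The Lsp and Fbp genes among them took between 22.2% and 27.3% of the reads on genes. The stage of the larvae was not tested. In whole larvae, whose sex was not given, fewer cells of a type and less RNA per cell cannot be told apart.

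Summed over the family, EcKL reads were more abundant in both mutant libraries than in either WT library. The normalized counts of all 47 members summed to 17351 and 15190 in the mutant libraries, against 9152 and 10868 in the WT libraries. Without CG11893 the sums were 13913 and 14546 in the mutant libraries, against 9038 and 10737 in the WT libraries. A log2 fold change above 0 was found for 26 of the 32 tested members, a share set against 47.8% of all 10500 genes tested. The median over the 32 was 0.74 on the log2 scale, against -0.03 over all genes tested. Fold changes were fitted to log2(normalized count + 1), which understates changes of low counts.

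Both mutant libraries were above both WT libraries for 21 of the 32 members (background 26.2% of all genes tested) and below them for 4 (background 27.9%). The groups overlapped for the other 7. A change of over 2-fold was fitted upward for 12 members and downward for 3. Over all genes tested these shares were 6.36% upward and 17.2% downward. The 32 members are not replicates of the genotype, since each was measured in the same 4 libraries.

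Single members seldom passed a test. By limma 0 of the 32 passed 0.05 in either direction (background 0.00952% for higher, 0% for lower), with adjusted p-values between 0.322 and 0.828. At an unadjusted p under 0.05, limma gave 7 members higher (background 6.89%) and 3 lower (background 7.24%). DESeq2 on the recovered reads called 4 members higher (background 1.62%) and 0 lower (background 1.3%), with 7 higher (background 5.72%) and 3 lower (background 11.4%) at an unadjusted p under 0.05. By edgeR 0 were called (background 0.00952% for higher, 0% for lower), with 8 higher (background 6.9%) and 3 lower (background 6.84%) at an unadjusted p under 0.05. An exact permutation test of 2 libraries against 2 cannot give a two-sided p under 0.333 for any single gene.

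**Figure D1:**
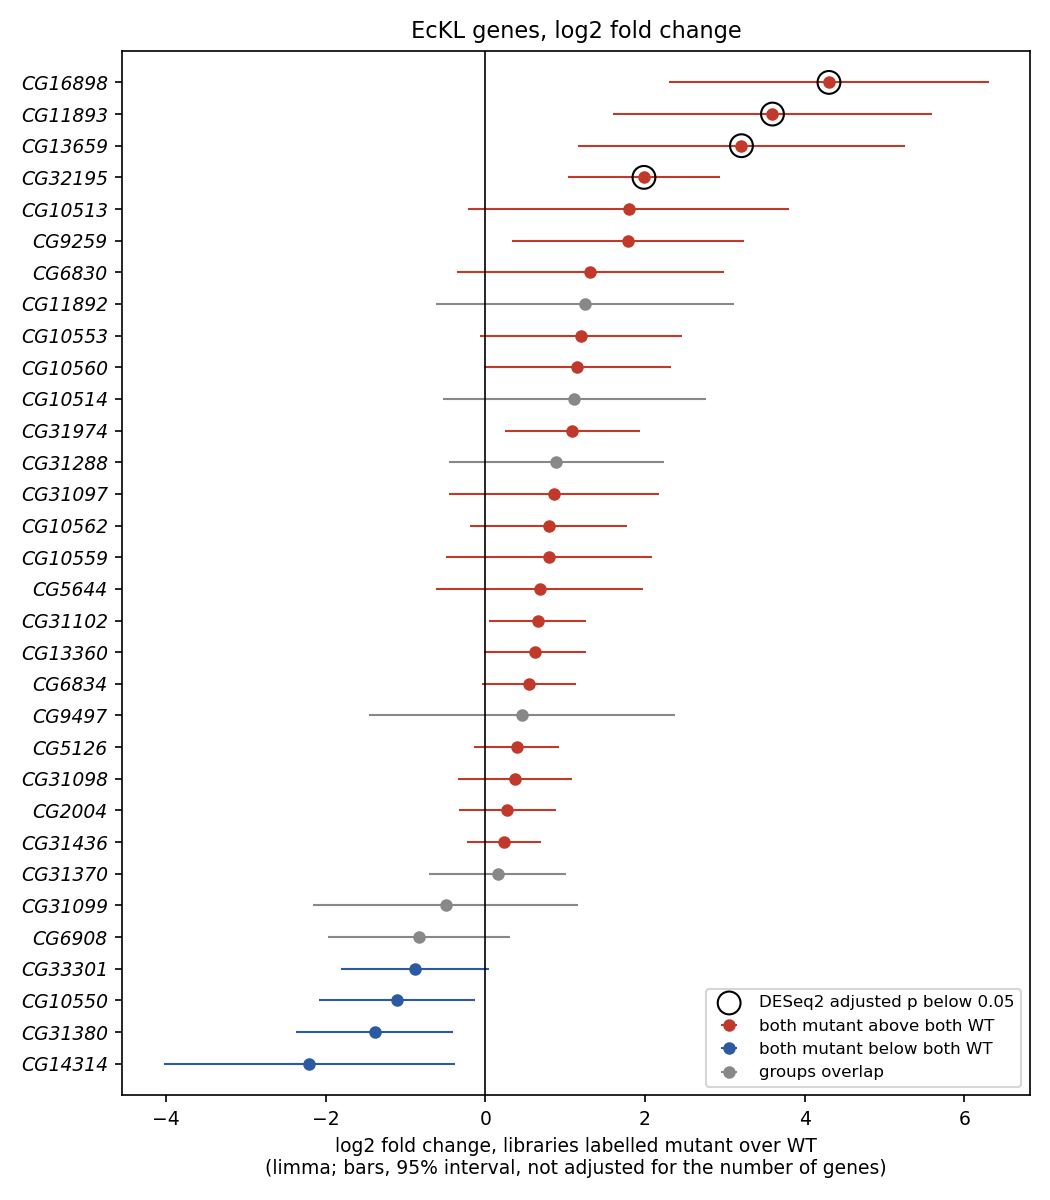
Log2 fold change of each of the 32 tested EcKL genes, mutant over WT libraries, fitted to log2(normalized count + 1), with the 95% confidence interval from limma. Red points mark members with both mutant libraries above both WT libraries, blue points the reverse and grey points overlap, and rings mark the 4 called by DESeq2. The points run from 4.31 for CG16898 to -2.20 for CG14314, and 26 of them lie above 0.

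Levels within the family spanned a wide range. On the scale of normalized counts per kilobase of exon, averaged over the 4 libraries, tested members ran from 11.4 for CG32195 to 3206 for CG13360, with a median of 97.9. CG11893 was next at 765, followed by CG31436 at 565 and CG6908 at 496. CG32195 has the longest exon length of the family, 4961 bp against a median of 1487 bp. By mean normalized count the lowest tested member was CG10559 at 21.9, against 56.4 for CG32195. CG13360, on the X chromosome, alone gave 33.4% and 43.4% of the family sum in the mutant libraries, against 36.0% and 44.9% in the WT libraries. Its share was therefore lower in replicate 1 than in replicate 2 of each genotype. The share of CG11893 was 19.8% and 4.25% in the mutant libraries, against 1.24% and 1.21% in the WT libraries. With both genes left out, the sums were 8121 and 7952 in the mutant libraries, against 5747 and 5855 in the WT libraries, so the separation did not rest on the most abundant pair.

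The 4 members that passed DESeq2, all higher in the mutant libraries, were CG16898, CG11893, CG13659 and CG32195. The first of these has the largest log2 fold change of the family and lies alone on 2R (20003620 to 20005003, minus strand, dm6). CG16898 had normalized counts of 293 and 76.9 in the mutant libraries, against 4.50 and 9.65 in the WT libraries. Each mutant library was well above both WT libraries, in which the counts rest on 5 and 8 reads. The log2 fold change was 4.31 (SE 0.78, limma adjusted p = 0.322, DESeq2 adjusted p = 1.15e-05).

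CG11893 (3R, 25289889 to 25291366, plus strand) had the largest difference in mean normalized count after CG13360. Its normalized counts were 3438 and 645 in the mutant libraries, against 113 and 131 in the WT libraries. The means were 2042 ± 1975 in the mutant libraries and 122 ± 12.7 in the WT libraries (SD, n = 2 each), so the spread was wide in the mutant group alone. The fitted log2 fold change was 3.60 (SE 0.78, limma adjusted p = 0.345, DESeq2 adjusted p = 2.08e-07).

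CG13659 (3R, 25300891 to 25302317, plus strand) lies in the same run of genes as CG11893 and had its 4 libraries in the same order. It had normalized counts of 722 and 136 in the mutant libraries, against 32.4 and 33.8 in the WT libraries. The WT libraries were nearly equal, and both mutant libraries lay above them. Its fold change was 3.21 on the log2 scale (SE 0.80, limma adjusted p = 0.347, DESeq2 adjusted p = 1.08e-04).

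These 3 genes were all much higher in mutant 1 than in mutant 2. The ratio of mutant 1 to mutant 2 was 5.33 for CG11893, 5.30 for CG13659 and 3.81 for CG16898. Uro, the urate oxidase gene of the Malpighian tubule, was also highest in mutant 1, with normalized counts of 180 and 97.4 in the mutant libraries, against 22.5 and 4.82 in the WT libraries. It was the 1 gene of 8 in the Malpighian tubule list that DESeq2 called (log2 fold change 3.51, limma adjusted p = 0.345, DESeq2 adjusted p = 0.0050). The whole list summed to 460 and 409 in the mutant libraries, against 459 and 256 in the WT libraries, and so overlapped between the groups. In WT 1, ZnT35C alone gave 367 of the 459. Of the 8 genes, 4 were tested, with a median log2 fold change of 0.75. Without overlap, 2 were higher (background 26.2%) and 0 lower (background 27.9%). None of the 8 was at 0 in any library, and the part of the Malpighian tubule in the EcKL values was not tested.

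CG32195 (3L, 18112959 to 18119150, plus strand) was the most even of the 4 within each genotype. It had normalized counts of 93.2 and 88.2 in the mutant libraries, against 22.5 and 21.7 in the WT libraries. The gap between the genotypes was larger than the difference within either. On the log2 scale the fold change was 1.99 (SE 0.37, limma adjusted p = 0.322, DESeq2 adjusted p = 0.0452).

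Each of the 4 DESeq2 calls was lost without at least 1 library. Without mutant 1, the DESeq2 adjusted p was 0.529 for CG16898, 0.857 for CG13659 and 0.9999 for CG32195. For CG11893 it was 0.703 without WT 1 and 0.138 without WT 2. CG32195 also lost its call without mutant 2 (DESeq2 adjusted p = 0.316), without WT 1 (0.728) or without WT 2 (0.281). The fitted limma log2 fold changes stayed positive in all of these fits, between 3.35 and 5.26 for CG16898, 2.39 and 4.80 for CG11893, 2.01 and 4.41 for CG13659, and 1.95 and 2.03 for CG32195.

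**Figure D2:**
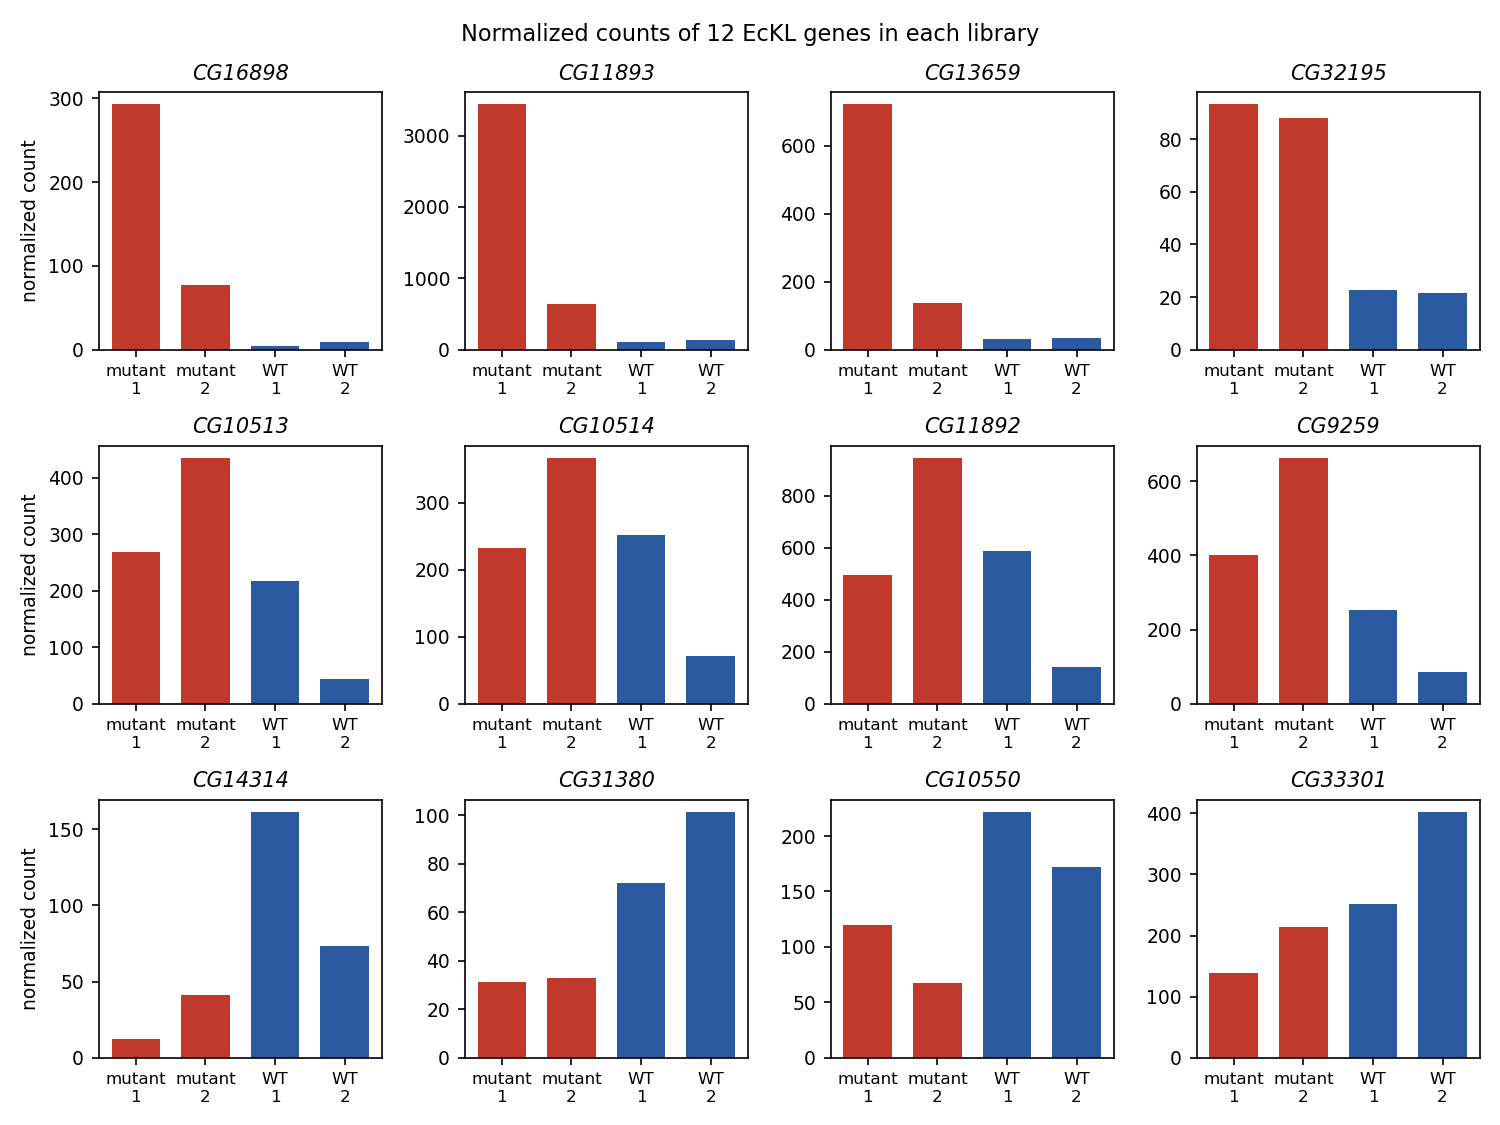
Normalized count of 12 tested EcKL genes in each library, 1 bar a library on linear axes from 0 that differ between panels, with mutant libraries (red) left of WT libraries (blue). In the top row CG16898, CG11893 and CG13659 are highest in mutant 1, while CG32195 is even within each genotype. In the middle row WT 2 is the lowest library, and in the bottom row both mutant libraries are below both WT libraries.

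In a further set of members WT 2 was the lowest library by a wide margin. CG10513 had normalized counts of 268 and 435 in the mutant libraries, against 218 and 43.4 in the WT libraries (log2 fold change 1.80). Its ratio of WT 1 to WT 2 was 5.02. CG9259, on 2L, had 401 and 661 in the mutant libraries, against 254 and 86.8 in the WT libraries (log2 fold change 1.79, SE 0.57, limma adjusted p = 0.347, DESeq2 adjusted p = 0.0889). Both genes kept their groups apart. The margin to WT 1 was narrow for CG10513 (268 in mutant 1 against 218) and wider for CG9259 (401 against 254). For CG11892 the values were 496 and 943 in the mutant libraries, against 586 and 140 in the WT libraries, and for its neighbour CG10514 they were 232 and 366 in the mutant libraries, against 252 and 71.2 in the WT libraries. In these 2 genes mutant 1 fell below WT 1, so the groups overlapped. Without WT 2 the log2 fold change was smaller, and it was 0.65 for CG10513, 1.02 for CG9259, 0.22 for CG11892 and 0.21 for CG10514.

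Smaller and steadier differences made up most of the rest. CG31974, on 2L, had normalized counts of 391 and 248 in the mutant libraries, against 167 and 127 in the WT libraries (log2 fold change 1.09, SE 0.33, limma adjusted p = 0.347). CG10560 had 70.8 and 75.9 in the mutant libraries, against 23.4 and 44.6 in the WT libraries (log2 fold change 1.15). CG10553 had 57.4 and 49.2 in the mutant libraries, against 16.2 and 31.4 in the WT libraries (log2 fold change 1.20). The mutant libraries were close to each other for CG10560 and CG10553, and further apart for CG31974.

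CG6830 had normalized counts of 168 and 57.4 in the mutant libraries, against 27.9 and 54.3 in the WT libraries (log2 fold change 1.32). Its mutant 2 value was hardly above WT 2, and the log2 fold change without mutant 1 was 0.55. CG10562 had 125 and 121 in the mutant libraries, against 53.1 and 92.9 in the WT libraries (log2 fold change 0.80). CG31097 had 43.9 and 27.7 in the mutant libraries, against 15.3 and 22.9 in the WT libraries (log2 fold change 0.86). The groups were apart in each of these 3 genes, by less than the difference between the WT libraries.

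CG10559 had normalized counts of 26.0 and 29.7 in the mutant libraries, against 12.6 and 19.3 in the WT libraries (log2 fold change 0.79). CG5644, on 3L, had 34.1 and 24.6 in the mutant libraries, against 14.4 and 21.7 in the WT libraries (log2 fold change 0.68). These are low counts, and their adjusted p-values from limma were 0.438 and 0.501.

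The most abundant member, CG13360 (X, 787855 to 790089, minus strand), had normalized counts of 5791 and 6594 in the mutant libraries, against 3291 and 4882 in the WT libraries. Both mutant libraries were above both WT libraries, and the fold change was 0.62 on the log2 scale (SE 0.25, 95% interval -0.01 to 1.26, limma adjusted p = 0.347). Only 77.5% of its exonic bases are free of another gene on either strand, and the strand setting of the counting is not given in the sources used here. CG31102 had 657 and 757 in the mutant libraries, against 384 and 522 in the WT libraries (log2 fold change 0.65, SE 0.24, limma adjusted p = 0.347). The remaining 5 members with separate groups, CG6834, CG5126, CG31098, CG2004 and CG31436, had log2 fold changes between 0.24 and 0.55.

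**Figure D3:**
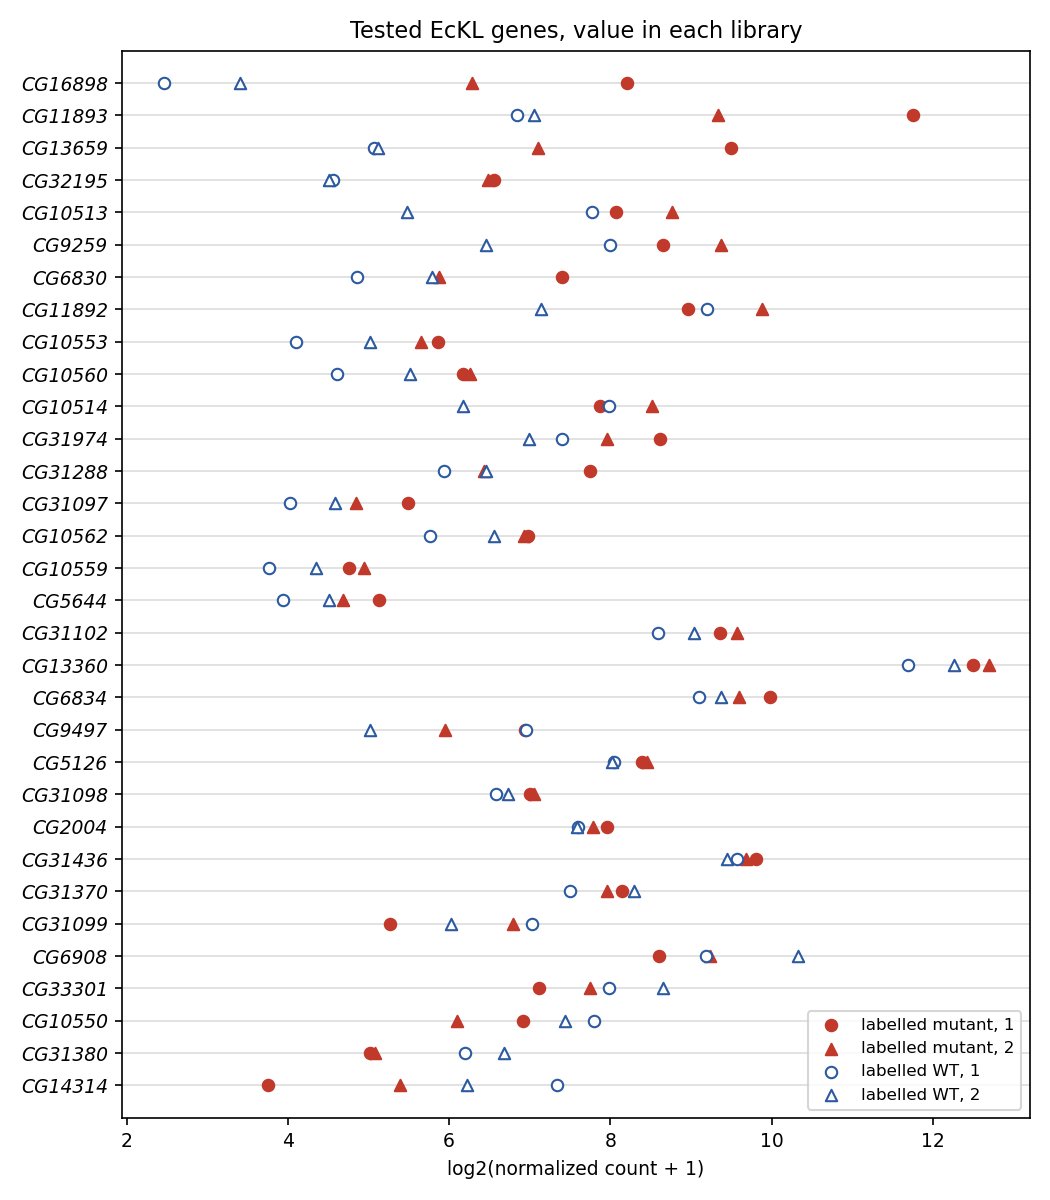
Value of each of the 32 tested EcKL genes in the 4 libraries, as log2(normalized count + 1), with genes ordered by log2 fold change. Filled red symbols are libraries labelled mutant and open blue symbols libraries labelled WT, with circles for replicate 1 and triangles for replicate 2. All red symbols lie right of all blue ones for 21 genes and left of them for 4.

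Of the tested members, 4 were lower in both mutant libraries than in both WT libraries. CG14314 (3R, 18216142 to 18218014, plus strand) had normalized counts of 12.5 and 41.0 in the mutant libraries, against 161 and 73.6 in the WT libraries. The fold change was -2.20 on the log2 scale (SE 0.71, limma adjusted p = 0.347, DESeq2 adjusted p = 0.122). It was lowest in mutant 1 and highest in WT 1, as was the sum of the testis markers, and the part of that tissue in its value was not tested.

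CG31380 (3R, 25787997 to 25789455, minus strand) had normalized counts of 31.4 and 32.8 in the mutant libraries, against 72.0 and 101 in the WT libraries (log2 fold change -1.39, SE 0.39, limma adjusted p = 0.347). CG10550 had 120 and 67.7 in the mutant libraries, against 221 and 172 in the WT libraries (log2 fold change -1.11, SE 0.38, limma adjusted p = 0.347). CG33301, on 2L, had 138 and 213 in the mutant libraries, against 251 and 402 in the WT libraries (log2 fold change -0.88). The values of CG31380 were nearly equal in the mutant libraries, whereas those of the other 3 varied more within a genotype.

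CG6908 had the largest negative log2 fold change among members whose groups overlapped, with 389 and 602 in the mutant libraries, against 579 and 1284 in the WT libraries (log2 fold change -0.83). The remaining overlapping members were CG31288 (log2 fold change 0.89), CG9497 (0.46), CG31370 (0.15) and CG31099 (-0.49). The last 3 of these changed sign when single libraries were left out. CG9497 ranged from -0.51 to 1.43, CG31370 from -0.25 to 0.55 and CG31099 from -1.25 to 0.27 on the log2 scale. The sign of the other 29 tested members held in all 4 of these fits.

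Most EcKL genes lie on 3R, which carries 30 of the 47, followed by 2L with 10, the X chromosome with 4, 3L with 2 and 2R with 1. With members joined when their starts were within 20 kb of each other, 36 fell into 5 runs and 11 stood alone. The longest run holds 24 members in 52549 bp of 3R (25270209 to 25322757, dm6), with 11 on the plus strand, 13 on the minus strand and 0 other annotated genes between them. A second run on 3R (11680972 to 11691799) holds CG6830, CG6834, CG6908 and CG18765. On 2L, CG33511, CG33510, CG33509 and CG9259 form a run from 21081127 to 21090999, and CG31975 with CG31974 and CG9497 with CG9498 form pairs.

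Within the run of 24, 17 members were tested. Both mutant libraries were above both WT libraries for 11 of them (background 26.2% of all genes tested) and below for 1, CG10550 (background 27.9%). The median log2 fold change was 0.86, with a range from -1.11 to 3.60. Outside the run, 15 members were tested, of which 10 were higher and 3 lower without overlap (the same backgrounds), with a median of 0.55. No test of the difference between the run and the other members was made, since genes are not replicates.

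Fold changes differed between neighbours in the run. CG11893, with a log2 fold change of 3.60, has CG13658 before it and CG31098 after it. CG13658 had normalized counts of 10.8 and 14.4 in the mutant libraries, against 0.90 and 13.3 in the WT libraries. CG31098 had 127 and 131 in the mutant libraries, against 94.5 and 105 in the WT libraries (log2 fold change 0.37). CG13659, with a log2 fold change of 3.21, lies between CG31288 at 0.89 and CG31370 at 0.15, and CG31436 after that had 0.24. Further along, CG10550 at -1.11 and CG31099 at -0.49 are followed by 4 tested genes, CG10559, CG10553, CG10560 and CG10562, at 0.79 to 1.20. The last 4 lie together on the minus strand, and WT 1 was below WT 2 in all of them.

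**Figure D4:**
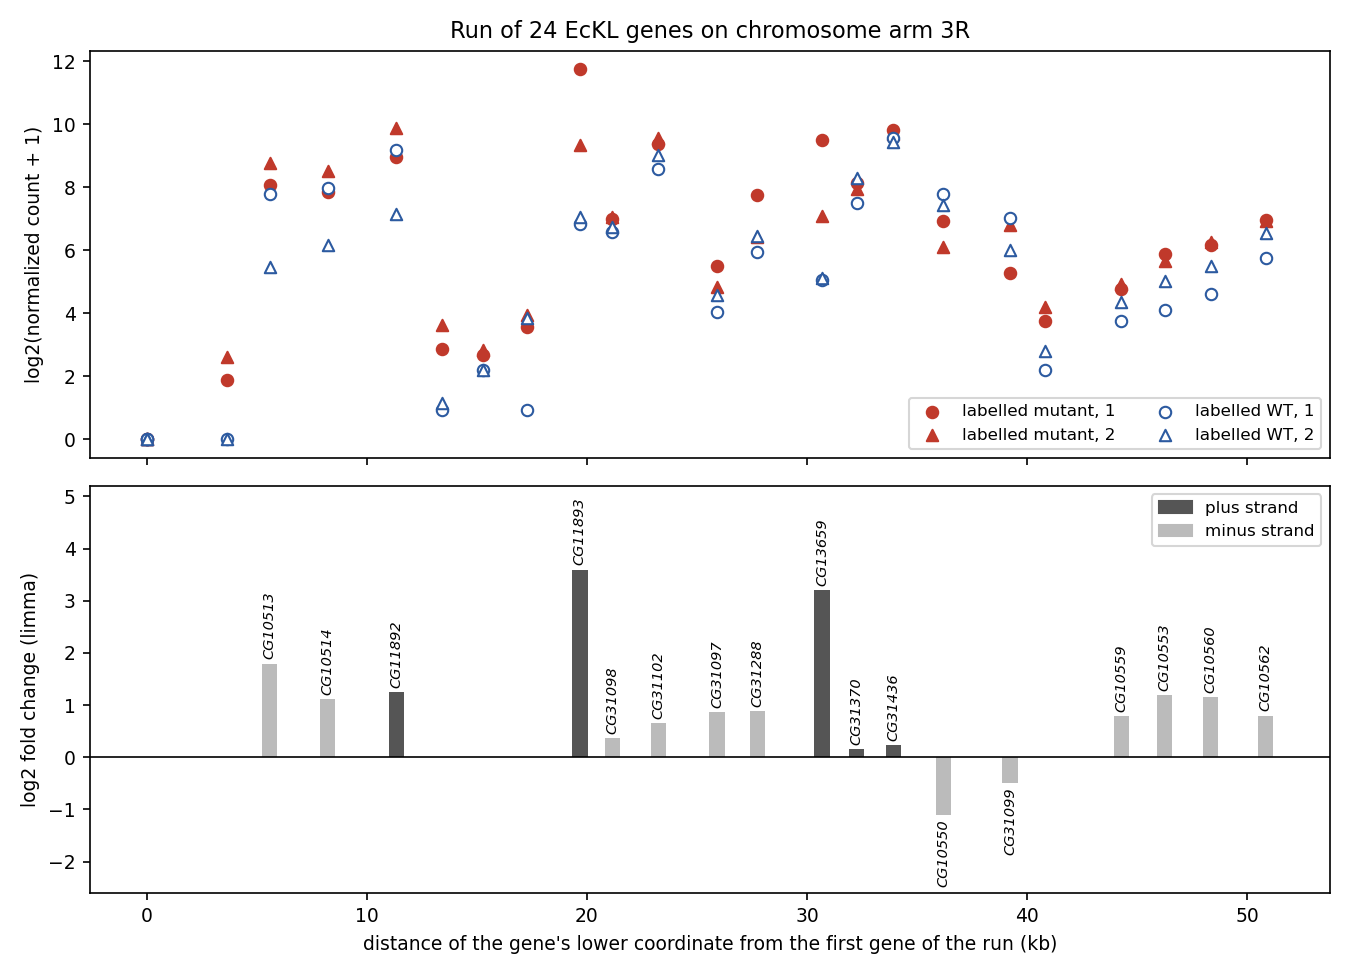
The 24 EcKL genes of the run on 3R in order along the chromosome, by distance from its first gene in kb. The upper panel shows log2(normalized count + 1) in each library (red, labelled mutant, and blue, labelled WT), and the lower panel the limma log2 fold change, mutant over WT, of the 17 tested members, dark for the plus strand and light for the minus strand. The tallest bars are CG11893 at 3.60 and CG13659 at 3.21, and CG10550 is lowest at -1.11.

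By strand, the 5 tested plus-strand genes of the run had a median log2 fold change of 1.25 and all were positive. The 12 tested minus-strand genes had a median of 0.83, with 10 positive. Members of such a run can be similar in sequence, and how many reads aligned to several copies was not measured here.

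A further 15 members were not tested. CG11889, CG11891 and CG31975 had 0 reads in all 4 libraries, which allows up to 2.69 to 3.62 normalized counts by counting error alone. In the current annotation CG11889 and CG11891 share every exonic base, from 25270209 to 25273267 on 3R, and 0% of the exonic bases of CG31975 are free of another gene on the same strand. Reads from these loci therefore could not be assigned to 1 gene by position, and a count of 0 does not show that they were silent.

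The other 12 had reads but a mean under 10. CG11878 had 2.69 and 5.13 normalized counts in the mutant libraries and 0 in both WT libraries, which is 3 and 5 reads against none. CG33511 had 0.90 and 3.08 in the mutant libraries and 0 in both WT libraries. CG31300 had 6.27 and 11.3 in the mutant libraries, against 0.90 and 1.21 in the WT libraries. In each of the 3, the WT values were under the floor of 3 reads, and no fold change is given.

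CG31087 had 12.5 and 17.4 in the mutant libraries, against 3.60 and 6.03 in the WT libraries. CG33510, CG31104 and CG9498 were also higher in both mutant libraries, and none exceeded 14.3 normalized counts in any library. The remaining 5, CG13658, CG18765, CG1561, CG33509 and CG7135, overlapped between the groups. CG1561, also called pinkman, had 4.48 and 15.4 in the mutant libraries, against 4.50 and 10.9 in the WT libraries. Over the 44 members with a read, 28 were higher without overlap (background 24.9% of all genes with a read) and 4 lower (background 24.7%).

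Genes of ecdysteroid synthesis and turnover, the pathway of the silkworm kinase, were read from the same fit. Of 14 listed, 9 were tested, with a median log2 fold change of 0.10, and 3 were higher (33.3%, background 26.2%) and 0 lower (background 27.9%) without overlap. By limma 0 passed an adjusted p of 0.05, with 2 at an unadjusted p under 0.05, and by DESeq2 0 passed. CG13604, the fly relative of the silkworm enzyme that removes the phosphate from ecdysteroid phosphates, had normalized counts of 229 and 230 in the mutant libraries, against 135 and 141 in the WT libraries (log2 fold change 0.73, limma adjusted p = 0.347). Eo, which encodes ecdysone oxidase, an enzyme of ecdysteroid inactivation, had 47.5 and 21.5 in the mutant libraries, against 7.20 and 10.9 in the WT libraries (log2 fold change 1.75, limma adjusted p = 0.347). The third was shd, the hydroxylase that makes 20-hydroxyecdysone, with 3000 and 3310 in the mutant libraries, against 1440 and 2583 in the WT libraries (log2 fold change 0.71, limma adjusted p = 0.349).

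Cyp18a1, whose product inactivates ecdysteroids by oxidation at carbon 26, stayed below the filter. It had 17.0 and 9.23 in the mutant libraries, against 2.70 and 2.41 in the WT libraries, where it was at or under 3 reads. The ring-gland hydroxylase genes phm and sad had 53.1 and 59.4 in WT 1, and neither passed 7.17 in any other library.

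Among 11 ecdysone-responsive transcription factor genes, all tested, the median log2 fold change was 0.24, and 3 were higher (27.3%, background 26.2%) and 0 lower (background 27.9%) without overlap. By limma and by DESeq2 0 passed an adjusted p of 0.05, and 1 had an unadjusted p under 0.05 in limma. It was Eip75B, an early-response nuclear receptor gene, with 17907 and 15297 in the mutant libraries, against 9940 and 9327 in the WT libraries (log2 fold change 0.78, limma adjusted p = 0.347, DESeq2 adjusted p = 0.0535). Neither ftz-f1 at 0.47 nor usp at 0.38 passed a test.

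Since many EcKL genes are expressed in the gut, midgut markers were set beside them. Of 15 digestive and enterocyte genes, 6 were tested, with a median log2 fold change of 0.75, 3 higher (background 26.2%) and 1 lower (background 27.9%) without overlap. Their sum was 758 and 801 in the mutant libraries, against 554 and 459 in the WT libraries. Without Myo31DF the groups overlapped. The other 14 genes summed to 134 and 182 in the mutant libraries, against 224 and 96.5 in the WT libraries. In WT 1, deltaTry alone gave 142 of the 224. Mal-A1 had 45.7 and 53.3 in the mutant libraries, against 14.4 and 22.9 in the WT libraries (log2 fold change 1.39). Mal-A2 had 30.5 and 48.2 in the mutant libraries, against 6.30 and 7.24 in the WT libraries (log2 fold change 2.34). Myo31DF, a brush-border myosin gene of enterocytes, had 624 and 618 in the mutant libraries, against 329 and 363 in the WT libraries (log2 fold change 0.84, DESeq2 adjusted p = 0.110). Several defining digestive genes were near absent, as Jon65Aii was at 0 in every library and 6 of the 15 never exceeded 3 reads in a library. By limma 0 of the 6 tested passed an adjusted p of 0.05, with 3 higher and 1 lower at an unadjusted p under 0.05. DESeq2 called only deltaTry, a trypsin gene, which had 0 in both mutant libraries, against 142 and 3.62 in the WT libraries (DESeq2 adjusted p = 0.0032). The part of midgut RNA in the EcKL values was not tested.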

How the data were processed

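Whole-larva RNA was sequenced from libraries made with the Illumina TruSeq Stranded Total RNA kit after Ribozero Gold removal of ribosomal RNA. According to the submitters' processing notes, the authors aligned reads to dm6 with TopHat2 (2.1.1), counted them per gene with HTSeq (0.6.1) and used DESeq2 for normalization. What they deposited is a signal, the normalized count, made by dividing each count by the size factor of its library. In each library 100% of values were whole multiples of 1 read (tolerance 0.01 reads), so reads could be recovered. Size factors ranged from 0.829 to 1.116. The 95% intervals from limma rest on the spread between libraries. The floors of 3 reads cover counting error only, since without molecular identifiers reads are not independent molecules.

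Genes with a mean of at least 10 (10500) were compared with limma (3.58.1, R 4.3.3; lmFit, eBayes with trend) on log2(normalized count + 1), two-sided, with Benjamini-Hochberg adjustment over all of them and a threshold of 0.05. DESeq2 (1.42.0) and edgeR (4.0.16) were run on the recovered reads as alternatives. Others were pseudocounts of 0.5 and 4, no filter or a mean of 50, rescaling to the same total with and without CR41602, quantile normalization, a fit in which eBayes had no trend, a block for the replicate number and leaving out each library. The scripts were tested on simulated data in which 197 tested genes changed 4-fold. Of these, limma recovered 100, DESeq2 118 and edgeR 101, beside 8, 16 and 6 false calls. The simulated counts were drawn independently for each gene and library, without deviations shared by many genes. These numbers therefore do not give the recovery in the real libraries. Names were matched to Ensembl's annotation of BDGP6, which is dm6, by current symbol (11817) or older symbol (3239), and 284 were unmatched. Positions and exon lengths come from there.

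The members and lists were chosen with earlier results of these data known. Values in every library are given for members past 0.05 in limma or DESeq2, for up to 20 tested members whose groups do not overlap, taken by size of log2 fold change, and for some of their neighbours. From each list, the genes past the threshold are named, or else up to 3 without overlap. Other genes named, among them CG6908, the members below the filter, phm, sad, Cyp18a1, Myo31DF, Mal-A1, Mal-A2 and ZnT35C, were chosen after their values were seen. Cytochrome P450 genes were taken as Cyp followed by digits, a letter and a digit, which leaves out cyclophilins. In the testis list rye and ProsAlpha6T were not matched. Sequences were not analysed here.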

Additional observations from a re-analysis of the deposited data

How the results depend on the processing

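The sign of the EcKL median log2 fold change held under every alternative that gave one. It was 0.59 after rescaling to the same total without CR41602, where the median of all genes was -0.18, and 0.96 after quantile normalization, where that median was 0.07, against 0.74 as reported. Leaving out 1 library gave 0.47 to 0.79. No tested member changed sign under the scalings, pseudocounts or other tests that were run. When 1 library was left out, Xbp1 ranged from -0.29 to 0.12, CG9497 from -0.51 to 1.43, CG31370 from -0.25 to 0.55 and CG31099 from -1.25 to 0.27, each changing sign. The number of members whose groups did not overlap was 24 after rescaling to the same total (19 higher, 5 lower) and 23 without CR41602 (18 higher, 5 lower), against 25 as reported (21 higher, 4 lower).

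Calls depended on the tool and on single libraries. Over all genes, limma called 1 as reported, 3 with no filter, 14 after rescaling to the same total (10 higher, 4 lower), 2 without CR41602, 16 after quantile normalization (12 higher, 4 lower) and 0 by eBayes without trend. DESeq2 called 307 (170 higher, 137 lower). Leaving out 1 library, limma called 0 to 170 genes and 0 to 3 members. The 3 members, CG16898, CG11893 and CG13659, were called without mutant 2, and 0 without mutant 1. DESeq2, a repeat chosen after seeing the data, called 43 genes and 1 member without mutant 1, 783 and 4 without mutant 2, 104 and 6 without WT 1, and 573 and 2 without WT 2, against 4 members with all libraries. The cause of these differences was not tested.

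The replicate numbers were not taken as pairs, since deviations of same-numbered libraries from their group means correlated at -0.44 over 10500 genes and only 2 pairs. With the replicate block limma called 0 genes, with 861 at an unadjusted p under 0.05, and 0 members. DESeq2 with the replicate block called 155 genes (84 higher, background 0.8%, and 71 lower, background 0.676%) and 3 members, all higher. With the crossed replicate block, chosen after seeing the data, limma called 1800 of the 10500 genes tested and 10 of the 32 members. DESeq2 called 1529 of these genes and 9 of the members. With 2 libraries a genotype, precision is limited by their number, and for the 12 members below the filter by depth.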

Other observations

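Other detoxification families were set beside the EcKL genes. Of 60 tested cytochrome P450 genes, 24 were higher and 12 lower in both mutant libraries than in both WT libraries, with a median log2 fold change of 0.36. DESeq2 called 4 of them higher, Cyp4p2, Cyp12a4, Cyp28c1 and Cyp9b1 (background 1.62% of all genes tested), and 1 lower (background 1.3%). Cyp4p2 had normalized counts of 2362 and 1064 in the mutant libraries, against 263 and 250 in the WT libraries (DESeq2 adjusted p = 1.60e-07), and Cyp6t1 was the lower gene, with 34.9 and 92.3 in the mutant libraries, against 446 and 839 in the WT libraries (DESeq2 adjusted p = 1.05e-06). Of 33 tested glutathione S-transferase genes, 16 were higher and 7 lower without overlap, with a median of 0.30. DESeq2 called GstE11 and GstE9 higher (background 1.62%). Of 21 tested UDP-glycosyltransferase genes, 8 were higher and 4 lower without overlap, with a median of -0.10. DESeq2 called 3 of these higher, with CG5724 at 986 and 497 in the mutant libraries, against 1.80 and 4.82 in the WT libraries (DESeq2 adjusted p = 4.92e-22). By limma 0 genes of the 3 families passed an adjusted p of 0.05. At an unadjusted p under 0.05, limma gave 11 higher and 6 lower P450 genes, 8 higher and 3 lower transferase genes of the glutathione family, and 5 higher and 2 lower UDP-glycosyltransferase genes. The backgrounds at this threshold were 6.89% for higher and 7.24% for lower. The share of EcKL genes higher without overlap, 65.6%, was set beside 40.0%, 48.5% and 38.1% in these 3 families (26.2% of all genes tested, and 27.9% for lower), and the difference between families was not tested. By calls, the EcKL share was not the largest. DESeq2 called 4 of 32 EcKL genes higher, against 4 of 60, 2 of 33 and 3 of 21 in these families. At an unadjusted limma p under 0.05, 7 of 32 were higher, against 11 of 60, 8 of 33 and 5 of 21.

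Of 6 genes for regulators of the response to foreign compounds, 5 were tested, with a median log2 fold change of -0.06. Without overlap, 1 was higher (background 26.2%) and 2 were lower (background 27.9%). Keap1, the inhibitor of the factor encoded by cnc, was the higher one, with 565 and 500 in the mutant libraries, against 338 and 367 in the WT libraries (log2 fold change 0.59, limma adjusted p = 0.347, DESeq2 adjusted p = 0.314). By limma and by DESeq2 0 of the 5 passed an adjusted p of 0.05, with Keap1 alone at an unadjusted p under 0.05 in limma. Hr96, a nuclear receptor gene of the xenobiotic response, had 323 and 306 in the mutant libraries, against 339 and 334 in the WT libraries, and tgo, which encodes a partner of bHLH-PAS factors, had 230 and 218 in the mutant libraries, against 264 and 240 in the WT libraries.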
